A study of Mus musculus with 12 samples.

Results

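The genes examined here were 10 actin and actin-binding genes known from stereocilia, or paralogs of such genes: the crosslinkers Espn, Fscn1, Fscn2, Pls1, Lcp1 and Pls3, the rootlet bundler Triobp, the filament-binding gene Xirp2, and the cytoplasmic actins Actb and Actg1. They were chosen by name from their known function and matched to 10 Ensembl identifiers among the 55416 genes in the count files. All 10 had enough reads to be among the 13269 genes tested, Lcp1 through its OHC libraries alone. Expression was compared between pools of inner hair cells (IHCs) and outer hair cells (OHCs), with 6 libraries of each, all from the organ of Corti of wild-type mice at P0 (the day of birth). IHCs were sorted as cells positive for Atoh1-GFP, and OHCs as cells that also carried the tdTomato label, which the Cre of the Insm1-GFP-Cre allele, driven by the Insm1 locus, switches on at R26-TdTomato. Each library was a pool of cells, and how many pups went into an RNA pool is not given in the sources used here. Reads were counted per gene, and the level of a gene is its CPM, the count divided by a library size that the TMM method of edgeR has corrected. Each fold change is OHC over IHC on the log2 scale, with its standard error (SE). A gene was called enriched when its p-value from the quasi-likelihood test of edgeR, adjusted by Benjamini-Hochberg over all tested genes, was under 0.05.

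A stereocilium is a finger-like protrusion filled with parallel actin filaments that crosslinkers hold in a tightly packed, rigid bundle. At its base the filaments narrow into a rootlet, which passes into the cuticular plate, a meshwork of actin under the cell's apical surface. Around birth, stereocilia of the mouse cochlea are still growing in length and width, and mutations in several of these genes, among them Espn, Triobp, Pls1, Fscn2 and Actg1, cause hearing loss or hair bundle defects in mice or humans.

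The pools carried the markers of their labels. The 4 IHC marker genes (Otof, Slc17a8, Tbx2 and Fgf8) were all IHC-enriched. Their summed levels were 1834 to 4284 CPM in IHC libraries and 360 to 687 CPM in OHC libraries. Of 4 OHC marker genes Insm1, Bcl11b and Neurod6 were OHC-enriched while Ikzf2 did not pass the test. Because the Cre behind the OHC label is driven by the Insm1 locus, Insm1 is not an independent check of the sort. A list of 8 general hair cell genes summed to 4878 to 7263 CPM in IHCs and 4459 to 5588 CPM in OHCs. IHC replicate 1 stood apart, since ribosomal RNA took 56.9% of its gene counts against at most 36.4% in any OHC library, and its TMM factor of 0.486 left it the smallest effective library size. Among cell types outside the sort, 10 supporting cell genes summed to 364 to 836 CPM in IHCs and 346 to 612 CPM in OHCs, 8 mesenchymal genes to 43.0 to 59.4 and 7.18 to 27.4 CPM, 6 glial genes to 20.9 to 75.4 and 7.91 to 44.9 CPM, 8 pericyte and smooth muscle genes to 4.91 to 39.0 and 6.98 to 37.1 CPM, and 6 erythroid genes to at most 0.0613 and 3.20 CPM. The supporting cell list includes Prox1, which the paper describes as known from developing outer hair cells too. Its sum is therefore not a measure of RNA from outside the sort alone. Prox1 averaged 217 CPM over the OHC libraries, against 28.6 CPM over the IHC libraries. Gjb2 (mean 30.3 CPM for OHCs, 216 CPM for IHCs) and Sox2 (26.8 CPM for OHCs, 71.6 CPM for IHCs) went the other way. Of 7 genes listed for spiral ganglion neurons, 5 were IHC-enriched (Nefm, Nefl, Gata3, Snap25 and Eya2). The 7 genes summed to 1447 to 2480 CPM in IHCs and 441 to 685 CPM in OHCs. Mean levels in IHCs and OHCs were 763 and 207 CPM for Nefm and 431 and 106 CPM for Nefl. Tubb3 had at most 22 counts in a library and Prph at most 2. Gata3, Eya2 and Snap25 are known to be expressed by hair cells as well, and the part of neuronal RNA in these levels was not tested.

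Counts that fall on near-identical genes could be shared between paralogs, so the coding sequences were compared first. The actins Actb and Actg1 are the closest pair. The first 60 coding bases (positions 1 to 60 from the start codon, GENCODE vM39 on GRCm39) are shown because they hold the codons in which the 2 proteins differ at their start, with the 9 differing bases in capitals:
Actb: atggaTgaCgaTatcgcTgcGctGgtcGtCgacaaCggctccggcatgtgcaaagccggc
Actg1: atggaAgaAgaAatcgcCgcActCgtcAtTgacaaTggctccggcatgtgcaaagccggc
Over all 1128 coding bases, 1000 were identical and 128 differed (88.7% identity), and the longest identical stretch was 62 bases, which is shorter than the 100-base reads. No 100-base window occurred in both coding sequences. The other paralogs were less alike, with 62.6% identity for Fscn1 and Fscn2, 69.7% for Pls1 and Lcp1, 70.2% for Pls1 and Pls3, and 74.2% for Lcp1 and Pls3, and identical stretches of at most 24 bases. A read of full length within the coding sequence could therefore be assigned to 1 paralog, although noncoding exons, and processed pseudogenes of the actins elsewhere in the genome, were not compared.

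**Figure D1:**
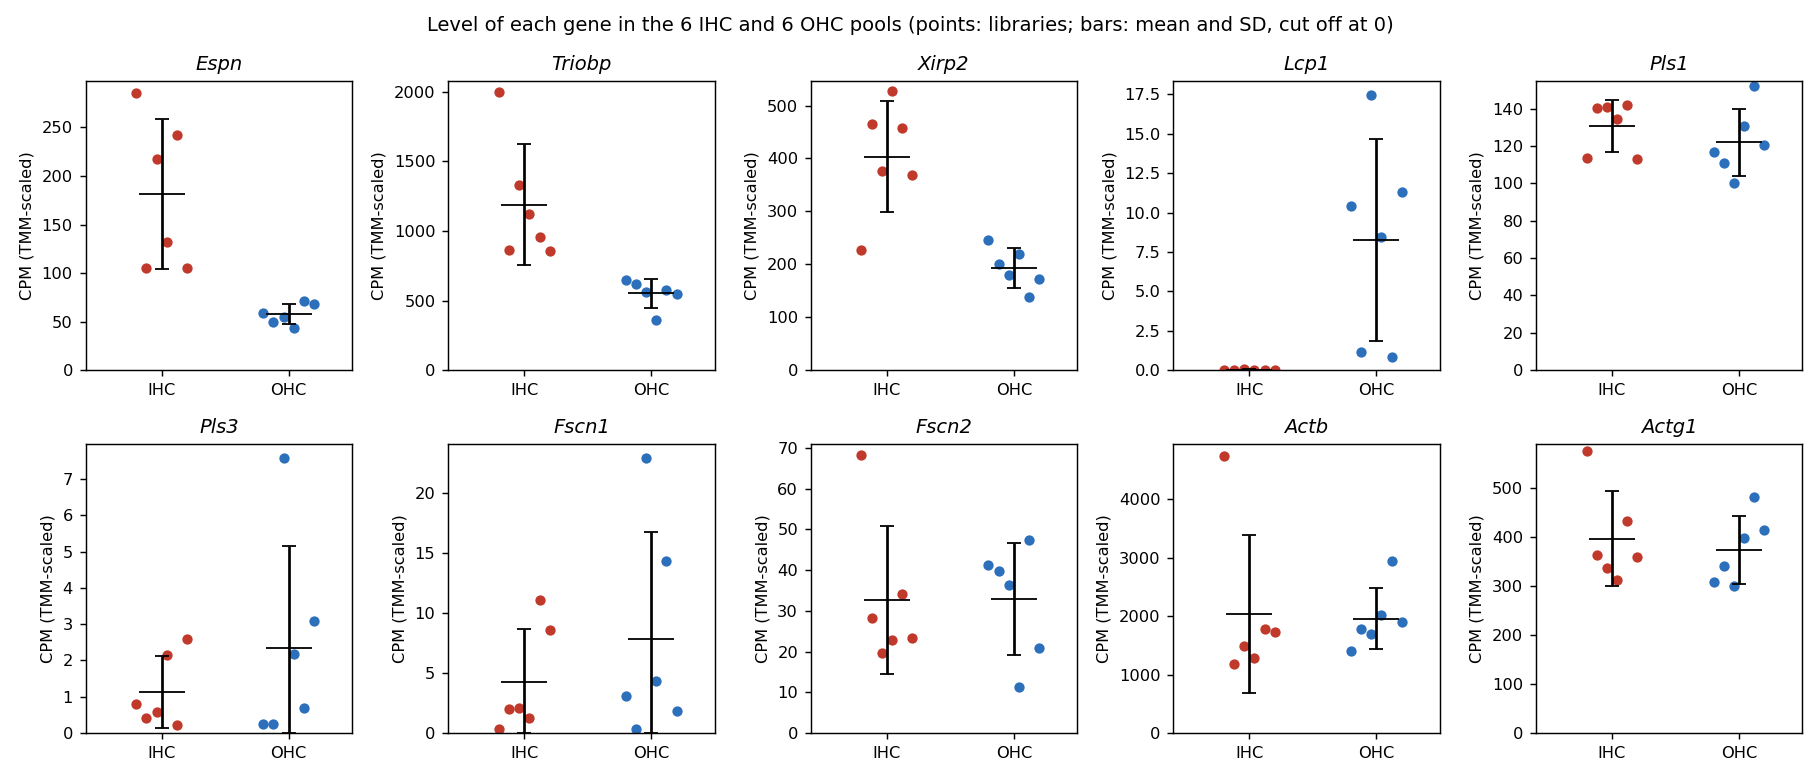
Level of each gene in CPM (linear axes that start at 0) in 6 IHC libraries (red) and 6 OHC libraries (blue), with the mean and SD as black bars. Espn, Triobp and Xirp2 sit higher in IHCs and Lcp1 is seen almost only in OHCs, while the points of the other 6 genes overlap.

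Of the 10 genes, 4 passed the test, beside 6.26% of all tested genes. Espn, Triobp and Xirp2 were IHC-enriched (3.81% of all tested genes were), and Lcp1 was OHC-enriched (2.44% of all tested genes were). The same 4 genes passed with DESeq2, which called 17.3% of the genes it tested. In 3 of the 10 genes (Espn, Triobp and Lcp1) the lowest library of one cell type was above the highest of the other, as in 4.6% of all tested genes. Lcp1 passed the filter on low counts only through the OHC libraries, the group in which it was then called. The median log2 fold change was -0.07 over the 10 genes and -0.04 over all tested genes. Since these are bulk pools, a lower share of cells that express a gene and less RNA per cell cannot be told apart.

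Espn encodes espin, which bundles actin filaments tightly and is needed for stereocilia of normal length and width. The gene lies on the minus strand of chromosome 4 (chr4:152204788-152236887, GRCm39). Its level was lowest at 105 CPM, 175 CPM in the median and highest at 286 CPM in IHC libraries, and 43.7, 57.3 and 71.0 CPM, respectively, in OHC libraries. All 6 IHC libraries lay above all 6 OHC libraries. IHC replicate 1 was the highest at 286 CPM. On the TPM scale, counts are divided by exon length and scaled to the same total in each library, without the TMM factor. Ribosomal RNA is part of that total and took 56.9% of gene counts in IHC replicate 1, which lowers its TPM. There IHC replicate 1 was the second lowest of the IHC libraries at 29.4 TPM. On that scale Espn ranged from 26.8 to 73.5 TPM in IHC libraries and from 15.9 to 26.2 TPM in OHC libraries, also without overlap. Espn was 3.14-fold higher in IHCs (95% confidence interval 2.10 to 4.67), with a log2 fold change of -1.65 (SE 0.28, edgeR quasi-likelihood test, adjusted p = 0.000907). Of its exonic bases, 6.02% lie antisense to Tnfrsf25, which had at most 186 counts in a library against up to 8320 for Espn.

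Triobp encodes a protein that wraps and bundles the filaments of the stereocilia rootlet. It is on the plus strand of chromosome 15 (chr15:78831924-78891929) and had the highest mean TPM of the 8 genes other than the actins. Its level was 858 CPM at the lowest, 1038 CPM in the median and 1994 CPM at the highest in IHC libraries, against 357, 569.6 and 646 CPM in OHC libraries. The ranges did not overlap, with IHC replicate 1 far above the other IHC pools and OHC replicate 4 well below the other OHC pools. Triobp was 2.16-fold higher in IHCs (95% confidence interval 1.57 to 2.97), with a log2 fold change of -1.11 (SE 0.22, edgeR quasi-likelihood test, adjusted p = 0.00405). Without IHC replicate 1 the log2 fold change was -0.91 (edgeR quasi-likelihood test, adjusted p = 0.00334). On the TPM scale its ranges overlapped, with 121 to 266 TPM in IHC libraries and 76.7 to 169 TPM in OHC libraries. Triobp has 13 annotated transcripts, of which the long and short forms encode different proteins, and counts per gene do not separate them.

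Xirp2 encodes a protein with repeats that bind actin filaments, first known from muscle and also found in stereocilia. It spans chr2:67004178-67356962 on the plus strand. Its lowest, median and highest levels were 227, 417 and 527 CPM in IHC libraries and 138, 191 and 246 CPM in OHC libraries. Here 5 of the 6 IHC pools exceeded all OHC pools, while IHC replicate 1, at 227 CPM, fell within the OHC range and below OHC replicate 1. Xirp2 was 2.09-fold higher in IHCs (95% confidence interval 1.53 to 2.86), with a log2 fold change of -1.06 (SE 0.22, edgeR quasi-likelihood test, adjusted p = 0.00474). Leaving out IHC replicate 1 gave a log2 fold change of -1.20 (edgeR quasi-likelihood test, adjusted p = 0.000402). On the TPM scale, IHC replicate 1 was the lowest IHC library both for Xirp2 (13.7 TPM, the others 69.7 to 98.9 TPM) and for Triobp (121 TPM, the others 131 to 266 TPM). The large share of ribosomal RNA in IHC replicate 1 is part of the TPM total and lowers the TPM of all its other genes. In CPM the same library was also the lowest IHC library for Xirp2, but the highest for Triobp. Why Xirp2 was low there was not tested.

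In 2 of the 10 supporting cell marker genes, Sox2 and Gjb2, levels were also higher in IHCs. In the IHC libraries Sox2 ranged from 30.3 to 102 CPM, and in the OHC libraries from 14.9 to 37.5 CPM. The connexin gene Gjb2 ranged from 78.8 to 453 CPM and from 1.74 to 58.3 CPM, respectively. Of the rest, Prox1 was OHC-enriched and 7 did not pass the test. The part of supporting cell RNA in the levels of Espn, Triobp and Xirp2 was not tested.

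**Figure D2:**
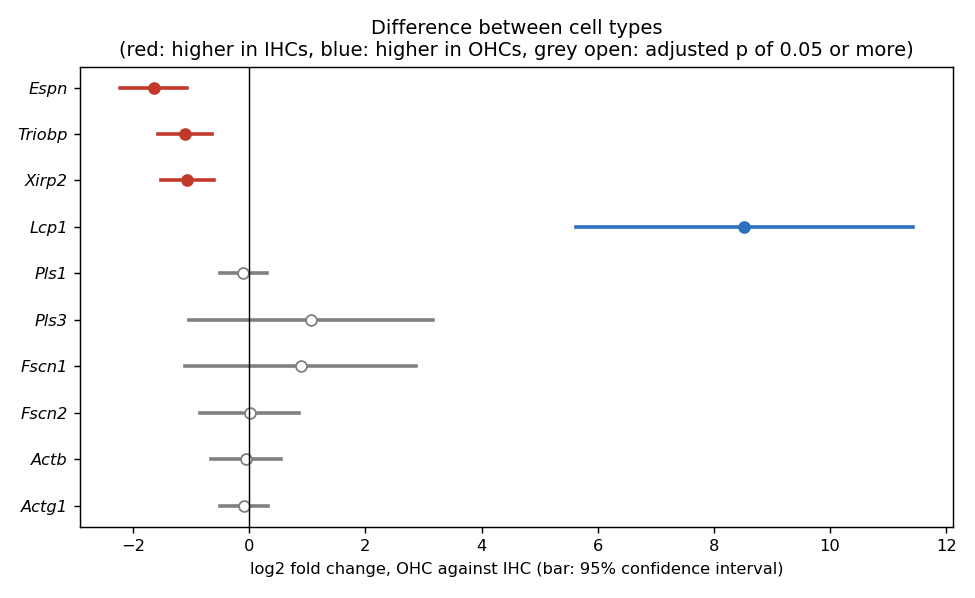
Log2 fold change of OHCs against IHCs for the 10 genes (points) with its 95% confidence interval (bars), coloured by whether the gene was called. The intervals of Espn, Triobp and Xirp2 lie below 0, that of Lcp1 lies between 5.62 and 11.4, and those of the other 6 genes include 0.

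The plastins (fimbrins) form a family of 3 crosslinkers, of which plastin 1 is the one known from mature stereocilia. Pls1, on the minus strand at chr9:95634544-95727364, had 113, 137 and 142 CPM as its lowest, median and highest levels in IHC libraries and 100.2, 119 and 152 CPM in OHC libraries. The groups overlapped almost fully. The log2 fold change was -0.10 (95% confidence interval -0.51 to 0.31, edgeR quasi-likelihood test, adjusted p = 0.806), an interval that leaves out a change of 2-fold in either direction. The SD over 6 libraries was 13.8 CPM around a mean of 131 CPM in IHCs and 17.9 CPM around 122 CPM in OHCs.

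Lcp1 encodes plastin 2 (L-plastin), which is best known from leukocytes. It lies at chr14:75367978-75468289 on the plus strand. In IHC libraries 5 of 6 had 0 counts and replicate 3 had 4 counts, which is 0.105 CPM. In OHC replicates 1 to 6 there were 482, 38, 644, 291, 25 and 484 counts, or 10.4, 1.16, 17.5, 8.46, 0.834 and 11.3 CPM. All 6 OHC libraries were above all IHC libraries, and within OHCs replicates 2 and 5 were well below the other 4. Summed over libraries, 1964 counts in OHCs stood against 4 in IHCs, a ratio of 448 when scaled by library size (95% interval 175 to 1645, which covers counting error only). The fitted log2 fold change was 8.53 (SE 1.39, edgeR quasi-likelihood test, adjusted p = 0.000733). The lower limit of its 95% confidence interval was 49.2-fold. Without IHC replicate 3 the remaining IHC libraries had no count, and the fitted log2 fold change of 11.2 then rests on no measured IHC level.

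The endothelial markers were higher in OHCs, as Lcp1 was. The 8 endothelial genes summed to between 0.392 and 13.0 CPM in IHC libraries and to 65.7, 12.2, 205, 74.7, 29.0 and 67.1 CPM in OHC replicates 1 to 6, and 5 of the 8 were OHC-enriched. The 4 OHC libraries with the most Lcp1 (replicates 1, 3, 4 and 6) were also the 4 with the highest endothelial sums, and Pecam1, which encodes an adhesion molecule of endothelium and some blood cells, had 22.9, 27.7, 12.1 and 16.1 CPM in these and 0.976 and 1.60 CPM in replicates 2 and 5. The glial sums were also highest in OHC replicates 1, 3, 4 and 6. They were 16.1, 11.1, 44.9, 34.5, 7.91 and 34.6 CPM in OHC replicates 1 to 6, and 20.9 to 75.4 CPM in IHC libraries. The part of endothelial or glial RNA in the Lcp1 level was not tested. Of 12 leukocyte genes, 8 had at most 3 counts in every library, and 7 of these (Cx3cr1, C1qa, C1qc, Tyrobp, Fcer1g, Aif1 and Cd52) had none at all. Ptprc, which encodes the pan-leukocyte antigen CD45, and Csf1r had no count in any OHC library and at most 1.83 and 0.236 CPM in an IHC library. The sum over the 12 genes, 33.7 to 62.4 CPM in IHCs and 68.4 to 168 CPM in OHCs, came mostly from Laptm5, which was OHC-enriched (25.6 to 58.4 CPM in IHC libraries and 65.0 to 162 CPM in OHC libraries), and the only other listed gene with enough reads to be tested, C1qb, did not pass. When OHC replicate 3 and IHC replicate 1 were both left out, the log2 fold change of Lcp1 was 8.03 (edgeR quasi-likelihood test, adjusted p = 0.00470), that of Espn -1.47, that of Triobp -0.90 and that of Xirp2 -1.17.

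**Figure D3:**
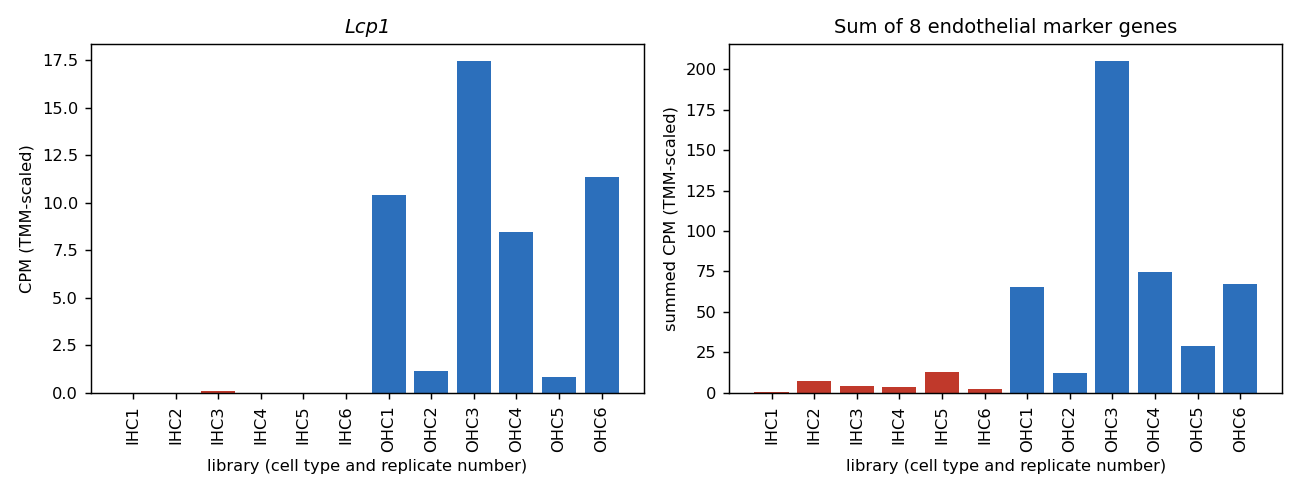
CPM of Lcp1 (left) and summed CPM of the 8 endothelial marker genes (right) in each library, IHCs in red and OHCs in blue, as bars from 0. OHC replicate 3 is the highest in both panels, at 17.5 and 205 CPM, and OHC replicates 2 and 5 are the lowest of the OHC libraries in both.

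Pls3 encodes plastin 3 (T-plastin), which is widely expressed in solid tissues and is on the X chromosome (chrX:74829260-74918805, minus strand). Its levels were low, from 0.214 to 2.59 CPM (median 0.680) in IHCs and from 0.237 to 7.60 CPM (median 1.44) in OHCs, with 7 to 280 counts in a library. The highest value was in OHC replicate 3, and the groups overlapped. Its log2 fold change of 1.06 (95% confidence interval -1.04 to 3.16, edgeR quasi-likelihood test, adjusted p = 0.579) could not be told from 0, and the interval is wide enough to hold large changes in either direction.

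The fascins were also compared. Fscn2 encodes the retinal and hair cell fascin, known from the tips and shafts of stereocilia, and lies at chr11:120251983-120258994 on the plus strand. Its levels were 19.6, 25.7 and 68.2 CPM (lowest, median and highest) in IHC libraries and 11.4, 38.0 and 47.3 CPM in OHC libraries. The groups overlapped, with IHC replicate 1 above all other libraries, and the log2 fold change was 0.01 (95% confidence interval -0.84 to 0.85, edgeR quasi-likelihood test, adjusted p = 0.996). Fscn1, which encodes the widely expressed fascin of filopodia (chr5:142946098-142958953, plus strand), was present at 0.327 to 11.0 CPM (median 2.02) in IHCs and 0.305 to 22.9 CPM (median 3.69) in OHCs. Its spread within each cell type was wide, from 5 to 360 counts in IHC libraries and from 10 to 845 in OHC libraries. Its log2 fold change was 0.89 (95% confidence interval -1.11 to 2.88, edgeR quasi-likelihood test, adjusted p = 0.629).

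The actins make up the filaments themselves. Actb, at chr5:142888870-142892509 on the minus strand, had 1172, 1610.2 and 4749 CPM as the lowest, median and highest levels in IHC libraries and 1408, 1845 and 2940.5 CPM in OHC libraries. The highest value was that of IHC replicate 1, and the other 5 IHC libraries, up to 1778 CPM, overlapped with the OHC libraries. Its log2 fold change was -0.05 (95% confidence interval -0.66 to 0.55, edgeR quasi-likelihood test, adjusted p = 0.935), and without IHC replicate 1 it was 0.38, also not past the threshold. Actg1, on the minus strand at chr11:120236512-120239617, had 312, 361 and 576 CPM in IHC libraries and 299, 368 and 480.5 CPM in OHC libraries. These ranges overlapped too, with a log2 fold change of -0.09 (95% confidence interval -0.50 to 0.32, edgeR quasi-likelihood test, adjusted p = 0.836) that was 0.038 without IHC replicate 1. Of the exonic bases of Actg1, 10.9% are antisense to the lncRNA 0610009L18Rik, which had at most 199 counts in a library.

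Levels of different genes were compared by TPM. In IHCs, the mean TPM was highest for Actb (1455 ± 455, SD, n = 6), followed by Actg1 (308 ± 96.1), Triobp (187 ± 56.6), Xirp2 (72.3 ± 30.9), Pls1 (71.7 ± 26.1), Espn (48.4 ± 20.4), Fscn2 (27.7 ± 5.79), Fscn1 (4.09 ± 4.62), Pls3 (0.468 ± 0.546) and Lcp1 (0.00505 ± 0.0124). Of these neighbours, the ranges of Actb and Actg1, of Triobp and Xirp2, of Fscn2 and Fscn1, and of Pls3 and Lcp1 did not overlap, while the other 5 neighbouring pairs overlapped, and Xirp2, Pls1 and Espn could not be ordered. In OHCs the TPM order was Actb (1975 ± 172), Actg1 (370 ± 25.8), Triobp (118 ± 34.0), Pls1 (80.5 ± 9.69), Xirp2 (41.9 ± 14.4), Fscn2 (40.2 ± 18.1), Espn (20.5 ± 3.84), Fscn1 (7.82 ± 9.71), Lcp1 (2.73 ± 2.25) and Pls3 (1.09 ± 1.43). There Pls1 stood above Xirp2 in all 6 libraries without overlap, and the pairs from Xirp2 down to Pls3 overlapped. Espn was thus above Fscn2 in mean TPM in IHCs, in 6 of 6 libraries, and below it in OHCs, in 5 of 6 libraries. Lcp1 was above Pls3 in 5 of 6 OHC libraries and below it in all 6 IHC libraries. These orders rest on the exon length used. With the longest transcript as the length, Espn rose above Xirp2 and Pls1 in IHCs, to 76.6 TPM, and Fscn2 above Xirp2 in OHCs.

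Because the scaling between libraries bears on every CPM value, levels were also expressed within each library per 1000 TPM of cytoplasmic actin (Actb and Actg1 summed). Espn had 27.9 ± 9.99 (SD, n = 6) in IHCs, ranging from 17.3 to 41.3, and 8.85 ± 2.10 in OHCs, ranging from 6.24 to 11.95, again without overlap. Triobp had 109 ± 31.5 in IHCs and 51.1 ± 17.3 in OHCs, with a slight overlap between the lowest IHC library at 76.3 and the highest OHC library at 77.0. Xirp2 ranged from 8.64 to 67.0 in IHCs and from 8.17 to 29.2 in OHCs. For Pls1 the values were 42.2 ± 16.5 and 34.5 ± 5.09, and for Fscn2 16.3 ± 3.39 and 17.4 ± 8.32. Relative to actin, the ranges of the cell types were apart for Espn and overlapped for the other 4 genes. These ratios are given as a description, with no test.

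The share of each paralog within its family was then compared, as a percent of the summed TPM of the family in the same library, with an exact permutation test over the 12 libraries (two-sided, smallest possible p = 0.00216) and adjustment over the 4 shares tested. Actg1 made up 17.8% ± 4.12 (SD, n = 6) of cytoplasmic actin in IHCs and 15.8% ± 1.51 in OHCs, a difference within the spread of the libraries (exact permutation p = 0.320, adjusted p = 0.489). In IHC replicate 1 the share was 10.5%, and in the other 11 libraries it lay between 13.7% and 23.1%. Without that library the difference was -3.38 percentage points in place of -1.93 (exact permutation p = 0.0173, adjusted p = 0.0693). Fscn2 made up 89.6% ± 9.41 of fascin in IHCs and 84.8% ± 12.9 in OHCs (exact permutation p = 0.489, adjusted p = 0.489), with single libraries from 65.8% to 99.6%, and the difference of -4.77 percentage points became -0.970 without OHC replicate 3. Pls1 made up 99.4% ± 0.551 of plastin in IHCs and 95.6% ± 4.04 in OHCs, a difference of -3.79 percentage points whose exact permutation p of 0.0281 did not hold after adjustment (adjusted p = 0.113). It was -2.36 without OHC replicate 3 (exact permutation p = 0.0563, adjusted p = 0.225) and -7.23 when counts were not divided by length (exact permutation p = 0.0238, adjusted p = 0.0952). The remainder was Pls3, with 0.593% ± 0.555 in IHCs and 1.28% ± 1.66 in OHCs (exact permutation p = 0.448, adjusted p = 0.489), and Lcp1, with at most 0.0339% in an IHC library and 0.250% to 7.07% in OHC libraries (no test). In every library of both cell types, Actb was the main cytoplasmic actin, Fscn2 the main fascin and Pls1 the main plastin.

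**Figure D4:**
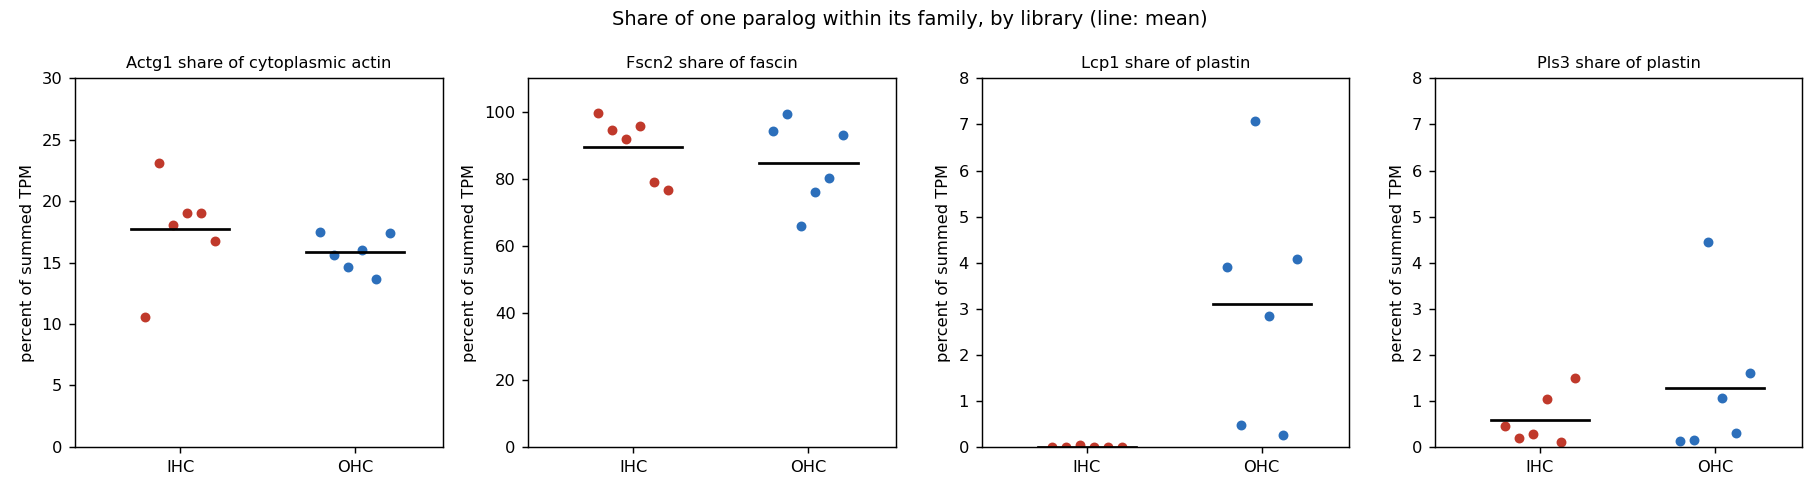
Percent of the family's summed TPM taken by Actg1 (of Actb and Actg1), Fscn2 (of Fscn1 and Fscn2), Lcp1 and Pls3 (of Pls1, Lcp1 and Pls3) in each library, with a line at the mean. The groups overlap for Actg1, Fscn2 and Pls3, and the Lcp1 share reaches 7.07% in OHC replicate 3 and is at most 0.0339% in IHCs.

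Other genes of the actin cytoskeleton were taken from 6 lists by function, 74 genes in all, of which 63 were tested and 7 passed (11.1% of those tested, beside 6.26% of all tested genes). Among 10 other bundling proteins and paralogs, 5 were tested and 2 were IHC-enriched. Espnl, which encodes espin-like, a paralog of espin also found in stereocilia, ranged from 405 to 603 CPM in IHCs and from 252 to 386 CPM in OHCs without overlap, with a log2 fold change of -0.74 (SE 0.18, edgeR quasi-likelihood test, adjusted p = 0.0161). Actn4, which encodes the crosslinker alpha-actinin 4, had 137 to 344 CPM in IHCs and 63.3 to 150.3 CPM in OHCs (log2 fold change -1.07, SE 0.27, edgeR quasi-likelihood test, adjusted p = 0.0218). The median log2 fold change of the 5 tested genes was -0.74. Fscn3, Avil and Xirp1 had no count in any IHC library, and in OHC libraries Fscn3 had up to 46 counts, Avil up to 13 and Xirp1 none.

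Among the 22 genes for capping, severing and monomer binding, all were tested and 1 passed. Tmod3, which encodes a tropomodulin that caps the slow-growing filament end, had 14.6 to 40.9 CPM in IHCs and 49.2 to 97.4 CPM in OHCs, with every OHC library above every IHC library (log2 fold change 1.26, SE 0.31, edgeR quasi-likelihood test, adjusted p = 0.0201). The median log2 fold change of the list was 0.18. Of the 19 genes for nucleation and elongation, 18 were tested and 1 passed. Arpc1b, a subunit of the Arp2/3 complex that nucleates branched filaments, had 0.0654 to 0.572 CPM in IHCs and 0.335 to 25.0 CPM in OHCs, where 4 of 6 libraries lay above all IHC libraries (log2 fold change 4.94, SE 1.20, edgeR quasi-likelihood test, adjusted p = 0.0171). Of its exonic bases, 17.4% lie antisense to Pdap1, which had up to 3201 counts, so its level is uncertain. In IHC libraries Arpc1b had only 1 to 21 counts. Like Lcp1, it passed the filter on low counts through the OHC libraries, the group in which it was then called. The other Arp2/3 genes of the list did not pass.

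Of 10 genes for proteins that link the bundle to the membrane, all were tested and 2 were OHC-enriched. Msn encodes moesin, which tethers actin to the plasma membrane, and its levels were 0.0919 to 3.61 CPM in IHCs and 7.77 to 36.6 CPM in OHCs, without overlap (log2 fold change 4.03, SE 0.82, edgeR quasi-likelihood test, adjusted p = 0.00510). By contrast, its paralogs Rdx and Ezr, the genes of radixin and ezrin, did not pass, with mean levels of 138 and 174 CPM in IHC libraries (SD 43.8 and 46.8, n = 6) against 155 and 186 CPM in OHC libraries (SD 20.5 and 40.5). In IHC libraries Msn had 3 to 138 counts, and it too passed the filter on low counts through the OHC libraries. Moesin is abundant in endothelium. In OHC replicates 1 to 6, Msn had 12.4, 7.77, 34.4, 18.3, 36.6 and 17.4 CPM, where the endothelial sums were 65.7, 12.2, 205, 74.7, 29.0 and 67.1 CPM. Replicate 2 was the lowest and replicate 3 among the highest in both, while replicate 5 had the most Msn and the second lowest endothelial sum. The part of endothelial RNA in the levels of Msn and Arpc1b was not tested. Nherf1, which encodes a scaffold that binds the ezrin family, had 23.8 to 49.3 CPM in IHCs and 53.1 to 104 CPM in OHCs (log2 fold change 1.04, SE 0.29, edgeR quasi-likelihood test, adjusted p = 0.0365). Of 8 genes of the cuticular plate and the tropomyosins, 7 were tested and Lmo7, which encodes a cuticular plate protein, was IHC-enriched, with 506 to 977 CPM against 281 to 491 CPM in OHCs (log2 fold change -0.78, SE 0.20, edgeR quasi-likelihood test, adjusted p = 0.0228). Among 5 other actin isoforms only Actc1 was tested, and it did not pass (log2 fold change -1.13, edgeR quasi-likelihood test, adjusted p = 0.557). Acta1, the skeletal muscle actin, had at most 3 counts in a library, and Actbl2 had none.

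Single libraries decided some of these calls. Espnl and Msn passed with any 1 library left out. Without OHC replicate 3, Tmod3, Arpc1b and Nherf1 no longer passed and 4 genes (Espnl, Actn4, Msn and Lmo7) remained. Actn4 was also lost without IHC replicate 5 or OHC replicate 2, Lmo7 without OHC replicate 4, 5 or 6, and Nherf1 without IHC replicate 2, 4 or 6 or OHC replicate 2, 5 or 6, and without both OHC replicate 3 and IHC replicate 1, 3 remained (Espnl, Actn4 and Msn). A filter of at least 10 counts in every library removed Arpc1b and Msn, and 5 listed genes were then called (Espnl, Actn4, Tmod3, Nherf1 and Lmo7). DESeq2, which called 17.3% of all genes it tested, called 13 of the listed genes, the same 7 and 6 more (Capza2, Gsn, Fhod3, Spire1, Actr2 and Tpm4).

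**Figure D5:**
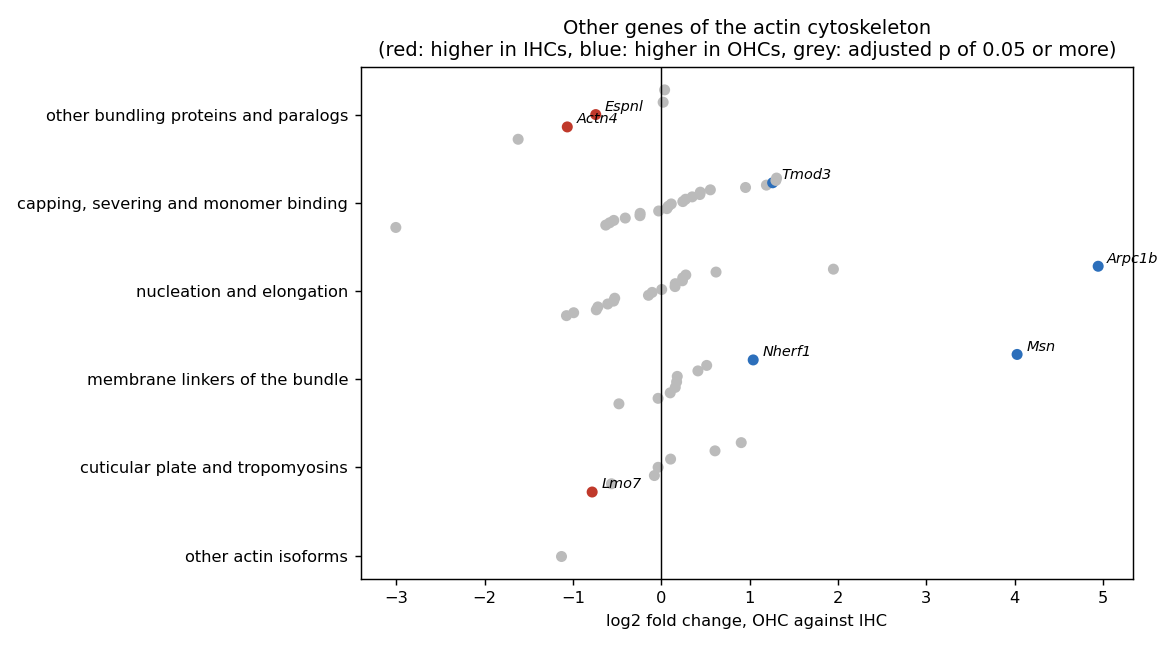
Log2 fold change of OHCs against IHCs for the 63 tested genes of the 6 actin cytoskeleton lists, one row of points per list, spread vertically in order of the fold change. The 3 IHC-enriched genes (red) lie between -1.07 and -0.74 and the 4 OHC-enriched genes (blue) between 1.04 and 4.94, and the other 56 (grey) did not pass the test.

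Lastly, the 150 bases before the annotated start of each gene's canonical transcript were read from GRCm39, because the basic helix-loop-helix factors of hair cells, such as ATOH1, bind E-boxes (CANNTG, which reads the same on both strands). The sequences of the 4 genes that differed between IHCs and OHCs are shown in the direction of transcription, with E-boxes in capitals.
Espn (chr4:152236888-152237037, minus strand): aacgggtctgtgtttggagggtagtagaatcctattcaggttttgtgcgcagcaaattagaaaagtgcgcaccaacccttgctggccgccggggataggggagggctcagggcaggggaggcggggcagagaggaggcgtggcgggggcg
Triobp (chr15:78831774-78831923, plus strand): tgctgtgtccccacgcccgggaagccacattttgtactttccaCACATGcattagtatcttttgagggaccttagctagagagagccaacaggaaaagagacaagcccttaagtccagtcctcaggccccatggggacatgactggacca
Xirp2 (chr2:67276196-67276345, plus strand): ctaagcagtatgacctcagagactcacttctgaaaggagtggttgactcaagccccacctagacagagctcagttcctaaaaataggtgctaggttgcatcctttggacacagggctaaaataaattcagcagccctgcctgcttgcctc
Lcp1 (chr14:75413886-75414035, plus strand): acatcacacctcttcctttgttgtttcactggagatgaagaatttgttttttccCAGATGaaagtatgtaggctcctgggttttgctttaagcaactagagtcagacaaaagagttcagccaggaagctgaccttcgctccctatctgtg
Triobp and Lcp1 each held 1 E-box, which began 107 and 96 bases before the start, and Espn and Xirp2 held none in this window. Of the other 6 genes, Pls1 held 1, Pls3 held 2, and Fscn1, Fscn2, Actb and Actg1 held none. Such a match was found in 40.5% of the 11815 tested protein-coding genes over a window of the same length. The starts used for Lcp1 and Xirp2 lie inside the annotated span of the gene, downstream of other annotated starts, and which start was used in these cells cannot be read from counts per gene.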

How the data were processed

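For each of the 12 libraries the authors deposited whole-number read counts per gene that had not been normalized. By the study's methods and the submitters' processing notes, reads were trimmed with Trimmomatic, aligned to GRCm39 with STAR and counted with HTSeq in its intersection-nonempty mode with the GENCODE vM27 annotation. Tool versions and the strand setting are not given in the sources used here. If strand was ignored, reads on exons shared with an antisense gene are lost or ambiguous. Libraries were amplified and reads carry no molecular identifiers, so counting intervals cover counting error only.

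The summary lines of HTSeq were left out of library sizes (reads without a feature were 9.32% to 15.9% of all lines in IHC and 13.8% to 33.3% in OHC libraries). Each IHC library had 31490204 to 44017309 counts on genes and each OHC library 29564827 to 39121988, of which ribosomal RNA took 21.5% to 56.9% and 23.4% to 36.4%. Genes were filtered with filterByExpr (minimum count 10, minimum total count 15) and scaled by TMM. They were compared with glmQLFit and glmQLFTest of edgeR 4.0.16 in R 4.3.3. The same fit was afterwards run on counts simulated from the means and dispersions of these data. DESeq2 1.42.0, other filters and scalings, and fits without single libraries were alternatives. CPM used no pseudocount. TPM used the union of exons in GENCODE vM39, which held 98.8% of the gene identifiers, and positions are those of vM39. Ribosomal RNA genes were kept in the TPM total. Shares were tested with scipy 1.17.1 in Python 3.11.15. The p-values measure the spread between sorted pools, and whether same-numbered IHC and OHC pools came from the same pups is not given in the sources used here.

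The 10 genes, the lists and the marker genes were chosen by function with earlier results of these data known. All 10 genes are named. Of the listed actin genes, every gene past the threshold was to be named, or the 6 with the largest change where more passed, and other genes named were chosen after their values were seen.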

Additional observations from a re-analysis of the deposited data

Results flagged for a closer look

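Within the 6 libraries of a cell type, the highest or lowest value of each gene and share was compared with its nearest neighbour by Dixon's criterion. Of 28 groups examined, 5 held a library that stood apart. Chance alone is set to flag about 1 in 20 where groups are independent and normally distributed. These groups share libraries and genes, so that rate is only a rough guide. Fscn2 was at 68.2 CPM in IHC replicate 1, against 19.6 to 34.1 CPM in the other IHC libraries. Actb was at 4749 CPM in the same library, against 1172 to 1778 CPM in the others. On the TPM scale, which does not use the TMM factor of this library, both were within the range of the other IHC libraries. Actb was at 1424 TPM (others 869 to 2238 TPM) and Fscn2 at 24.0 TPM (others 22.6 to 35.4 TPM). Ribosomal RNA, 56.9% of gene counts in IHC replicate 1, is part of the TPM total and lowers these values. TPM therefore cannot decide whether this library stands apart. Triobp was at 357 CPM in OHC replicate 4, against 545 to 646 CPM in the other OHC libraries. The share of plastin taken by Pls3 was 4.44% in OHC replicate 3, against 0.129% to 1.60% in the other OHC libraries, and the same library had the highest endothelial sum. Lcp1 was at 0.105 CPM in IHC replicate 3, from 4 counts, with 0 in the other IHC libraries, a case in which any count is flagged.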

How the results depend on the processing

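Espn, Triobp and Xirp2 were called IHC-enriched in all 19 alternatives, with log2 fold changes between -1.78 and -1.47, -1.20 and -0.90, and -1.20 and -0.98. Lcp1 was OHC-enriched in the 18 in which it could be tested (8.03 to 11.2), since a filter of at least 10 counts in every library removed it and left 3 of the 10 genes called. No other of the 10 genes passed in any alternative. DESeq2 called 1339 IHC-enriched, 1590 OHC-enriched and 13 listed actin genes, and without a filter on low counts edgeR called 893 and 918 genes. Leaving out 1 library at a time gave 4 to 8 listed actin genes (4 without OHC replicate 3), and 3 passed without both IHC replicate 1 and OHC replicate 3, an alternative chosen after seeing the data. The genes that were not called changed sign in places. Fscn2 was at -0.027 with median-of-ratios factors, -0.019 with DESeq2, -0.010 without ribosomal RNA genes and -0.13 to 0.35 with single libraries left out. Actb lay between -0.21 and 0.38 and Actg1 between -0.18 and 0.038 with single libraries left out, and without both named libraries Actb was at 0.43, Actg1 at 0.10 and Fscn1 at -0.083. The cause was not tested. Deviations of same-numbered IHC and OHC libraries correlated at -0.031 to 0.018, so no shared deviation was seen. No IHC library correlated best with the OHC library of its own number. These correlations cannot show whether same-numbered pools came from the same pups. With the replicate number as a block, 903 genes were called, the same 4 of the 10 passed, and of the listed actin genes Arpc1b was not called and Capza2 was. There Fscn2 was at -0.0014 and Actb at 0.13. With the TPM scaling made without the 20 most abundant genes, levels rose 2.75-fold to 3.35-fold with the order kept, and with the longest transcript as length they changed 0.994-fold to 2.09-fold. No share passed after adjustment in any of its 15 alternatives, in which the differences ranged from -7.68 to -0.970 percentage points for Fscn2, -3.38 to -0.869 for Actg1, -7.23 to -2.36 for Pls1 and 0.0549 to 0.947 for Pls3. For the low genes Fscn1, Pls3 and Lcp1, depth and the spread between pools limit what can be seen.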
